A study of Mus musculus with 100 samples.

Results

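Fat genes were followed in whole knee joints of mice that do or do not develop osteoarthritis after a rupture of the anterior cruciate ligament. The 10 genes, chosen by name, were the white fat hormones and secreted proteins Adipoq, Lep, Cfd and Retn, the lipid storage genes and regulator Plin1, Fabp4 and Pparg, and the brown fat genes Ucp1, Cidea and Dio2. All 10 were among the 17310 genes of the table of counts, and all 10 passed the filter on low counts. The mice were inbred MRL/MpJ, C57BL/6J and STR/ort animals with no transgene. They were 10 weeks old at 0-day and at injury, so joints of later times came from older mice. Per the study's methods, mice were under isoflurane for the injury and were given the analgesic buprenorphine right after it. Injury, anaesthesia, analgesia and age thus cannot be told apart where contralateral joints are set against 0-day joints. The right knee was injured by 1 compressive load of 10 to 12 N, and the left knee served as the uninjured contralateral joint. Joints of uninjured mice were taken at 0-day (4 libraries per strain). Injured and contralateral joints were taken at 1-day (5 and 5 libraries per strain), at 1-week (5 injured per strain, and 4, 5 and 4 contralateral in MRL/MpJ, C57BL/6J and then STR/ort) and at 2-weeks (5 and 5 per strain), which makes 100 libraries in 21 groups. The labels place 0-day, 1-day and 1-week in experimental batch 1 and 2-weeks in batch 2, so levels at 2-weeks cannot be told apart from batch when set beside earlier times. The labels do not say for the earlier times which libraries came from separate animals, and p-values there measure the spread between libraries.

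A joint library holds bone, marrow, cartilage, synovium, fat pad and whatever muscle stayed attached. The joints were cut with traces of soft tissue, and the summed level of 8 fast muscle genes ranged from 13658 to 110572 CPM (counts relative to the library total, which was scaled by TMM factors). The 7 white fat markers, which are the members Adipoq, Plin1, Lep, Cfd and Retn with Cidec and Lipe, were all counted. Their summed level was 117 to 607 CPM with a median of 207, and is not independent of the members. Of the 7 brown fat markers, Ucp1 had a count in 56 of 100 libraries, Elovl3 in 75 and Otop1 in 92, and Cidea, Cox8b, Zic1 and Prdm16 in all 100, where Cox8b is a gene that skeletal muscle carries as well. The labels do not give the sex, and the Y-linked gene Ddx3y was at 101 CPM or more in every library. Libraries held between 6182016 and 20986027 counts.

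White fat cells store triglyceride in a droplet coated by perilipin (Plin1) and release hormones. Leptin (Lep) reports the size of the fat stores to the brain, adiponectin (Adipoq) raises insulin sensitivity, adipsin (Cfd) is complement factor D, and resistin (Retn) is an adipocyte hormone of rodents. Brown and beige fat cells make heat by uncoupling protein 1 (Ucp1), and in the knee both the infrapatellar pad and the marrow hold fat cells.

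Promoters of members named in the main results are shown here as reference sequence. Cfd and Retn each varied with Adipoq between replicates of uninjured joints, Lep set STR/ort apart and Ucp1 was nearly absent from C57BL/6J. Each run holds the 250 bases before the start of the gene in RefSeq (build GRCm38.p6), written 5′ to 3′. Capitals mark matches, on either strand, to AGGTCA (the half-site of nuclear receptors), TTNCNNAA (C/EBP factors), TATAAA (the TATA box) and CCAAT (the CCAAT box).
Adipoq, chr16:23146286-23146535, plus strand: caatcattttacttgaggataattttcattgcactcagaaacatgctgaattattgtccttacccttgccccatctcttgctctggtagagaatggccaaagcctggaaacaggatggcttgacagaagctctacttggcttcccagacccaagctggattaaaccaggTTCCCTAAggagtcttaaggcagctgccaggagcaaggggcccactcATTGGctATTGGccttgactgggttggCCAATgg
Cfd, chr10:79890603-79890852, plus strand: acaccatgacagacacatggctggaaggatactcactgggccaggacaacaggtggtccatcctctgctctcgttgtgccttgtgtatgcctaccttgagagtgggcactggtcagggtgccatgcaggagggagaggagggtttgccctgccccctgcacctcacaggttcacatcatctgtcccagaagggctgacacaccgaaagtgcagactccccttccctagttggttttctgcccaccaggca
Retn, chr8:3655520-3655769, plus strand: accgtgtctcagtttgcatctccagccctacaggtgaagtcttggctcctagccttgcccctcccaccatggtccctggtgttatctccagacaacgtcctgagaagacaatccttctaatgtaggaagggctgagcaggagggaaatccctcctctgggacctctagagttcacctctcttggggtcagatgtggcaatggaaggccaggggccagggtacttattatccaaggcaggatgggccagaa
Lep, chr6:29059971-29060220, plus strand: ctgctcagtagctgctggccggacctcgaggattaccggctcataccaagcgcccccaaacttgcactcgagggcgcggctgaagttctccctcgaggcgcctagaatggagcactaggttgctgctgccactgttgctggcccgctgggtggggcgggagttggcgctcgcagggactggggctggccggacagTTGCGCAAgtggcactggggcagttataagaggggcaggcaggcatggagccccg
Ucp1, chr8:83290098-83290347, plus strand: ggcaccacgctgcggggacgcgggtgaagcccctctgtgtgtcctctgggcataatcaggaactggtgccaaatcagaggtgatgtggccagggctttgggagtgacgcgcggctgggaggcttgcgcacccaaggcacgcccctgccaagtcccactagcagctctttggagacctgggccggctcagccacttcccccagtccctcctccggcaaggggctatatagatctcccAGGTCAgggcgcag
Lep held 1 TTNCNNAA match, which reads the same on both strands, and Ucp1 held 1 AGGTCA match. Adipoq held 1 TTNCNNAA and 3 CCAAT matches. In the windows of Cfd and Retn these letters were not found. Of 32851 promoters of the same length, AGGTCA was in 14%, TTNCNNAA in 36.8%, TATAAA in 12.4% and CCAAT in 33.8%. A match is thus a description only, and binding of a factor was not tested. The genes lie on chromosome 16 (Adipoq, chr16:23146536-23158028, GRCm38), chromosome 6 (Lep, chr6:29060220-29073877, and Pparg, chr6:115360951-115490399), chromosome 10 (Cfd, chr10:79890853-79892655) and chromosome 8 (Retn, chr8:3655770-3660110, and Ucp1, chr8:83290352-83298452). Plin1 lies at chr7:79720218-79732903, Fabp4 at chr3:10204088-10208576 and Dio2 at chr12:90724552-90738438, all on the minus strand. All are protein-coding genes, and counts fall on their exons. An exon of Pparg overlaps the antisense gene Gm44079 and exons of Dio2 and Cidea overlap Gm26512 and B430212C06Rik, and the strand setting of the counting is not given in the sources used here, so reads of these pairs cannot be told apart.

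Levels of different genes were compared per kilobase of the longest principal protein-coding transcript. In C57BL/6J joints at 0-day, Fabp4, the fatty acid carrier that fat cells share with endothelium and macrophages, was highest at 457 ± 93.8 CPM per kilobase (SD, n = 4). Cfd followed at 181 ± 52.8 and Adipoq at 62.6 ± 13.2 CPM per kilobase. Below them stood Retn at 22.9 ± 7.24, Pparg at 11.8 ± 0.83, Plin1 at 6.96 ± 1.97, Dio2 at 5.38 ± 1.65 and Lep at 3.79 ± 1.66 CPM per kilobase. The ranges of 1 SD overlapped between Plin1 and Dio2 and between Dio2 and Lep, and between no other neighbours in this order. Cidea stood at 0.58 ± 0.23 CPM per kilobase and Ucp1 had no count. In STR/ort joints at 0-day the order differed: Cfd (52 ± 5.1) and Adipoq (51.2 ± 4.83) lay within 1 SD of each other, and Lep stood at 9.43 ± 1.37 and Cidea at 10.3 ± 10.6 CPM per kilobase.

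To ask which fat genes set the strains apart before injury, all pairs of strains were compared at 0-day. Lep was highest in STR/ort, Cfd and Retn were highest in C57BL/6J, and Ucp1 and Cidea were high in some of the STR/ort joints. Calls were made at an adjusted p (Benjamini-Hochberg over all genes, quasi-likelihood test of edgeR) under 0.05 together with a change of more than 1.5-fold. Of the 10 members 5 were called between STR/ort and MRL/MpJ, where 14.8% of all genes were called. Of these, 4 were higher (8.34% of all genes) and 1 was lower in STR/ort (6.44%). Between STR/ort and C57BL/6J 5 were called (13.8%), 3 higher (7.82%) and 2 lower in STR/ort (5.99%). Between C57BL/6J and MRL/MpJ 4 were called (15.9%), all higher in C57BL/6J (9.64%). The median log2 fold change of the members was 0.50, -0.19 and 0.36 in these comparisons, against 0.01, -0.06 and 0.01 over all genes. In whole joints fewer fat cells and less RNA per fat cell cannot be told apart. Muscle content differed between the strains as well: of the 8 fast muscle markers 7 were lower in C57BL/6J than in STR/ort and 8 lower than in MRL/MpJ. They summed to 32977 to 52940 CPM in C57BL/6J, to 71345 to 87385 CPM in MRL/MpJ and to 75097 to 85374 CPM in STR/ort, and their part in the member results was not tested.

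Lep stood at 30.2, 25.9, 36.8 and 30.1 CPM in the 4 STR/ort libraries of 0-day. MRL/MpJ libraries stood at 21.8, 11.9, 11.4 and 13.1 CPM and C57BL/6J libraries at 19.8, 8.52, 8.22 and 12.9 CPM. Every STR/ort library was above every library of the other strains, and in each of the other strains replicate 1 was the highest. Markers of other tissues were set apart with Lep. Of 6 skin and hair markers only 2 were measured, and their sum was 7.94 to 9.83 CPM in STR/ort against 2.24 to 3.93 CPM in the other strains (1 of 2 called against each). Of 7 erythroid markers 5 were measured, with a sum of 1848 to 1961 CPM against 2591 to 5030 CPM (5 of 5 lower than in MRL/MpJ and 3 of 5 lower than in C57BL/6J). The 6 slow muscle markers summed to 609 to 1452 CPM in STR/ort against 82.5 to 387 CPM (6 of 6 higher than in each). Their part in the result was not tested. The level in STR/ort was 2.07-fold that in MRL/MpJ (log2 fold change 1.05 ± 0.23 SE, adjusted p = 0.00157) and 2.43-fold that in C57BL/6J (1.28 ± 0.22 SE, adjusted p = 0.000237).

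STR/ort also had the highest Lep level in contralateral joints at each later time, in other animals. At 1-day STR/ort stood at 25.3 ± 5.63 CPM (SD, n = 5), MRL/MpJ at 10.7 ± 0.654 and C57BL/6J at 10.9 ± 2.54. At 1-week the levels were 18.8 ± 9.85 (n = 4), 6.07 ± 2.21 (n = 4) and 4.57 ± 1.88 CPM (n = 5), and at 2-weeks 24.2 ± 5.57, 5.58 ± 0.915 and 2.56 ± 0.76 CPM (n = 5 each). The strains did not overlap in any of these comparisons with STR/ort. The skin and hair sum did not overlap either, at 7.78 to 9.72 CPM in STR/ort against 2.02 to 3.7 CPM at 1-day, 6.28 to 8.14 against 2.26 to 3.83 CPM at 1-week and 5.92 to 10.1 against 1.56 to 5.78 CPM at 2-weeks. The sum of the 5 synovial fibroblast markers was apart as well, at 6724 to 9488 against 1455 to 2482 CPM at 1-day, 6339 to 18945 against 996 to 1484 CPM at 1-week and 1252 to 2347 against 494 to 734 CPM at 2-weeks. The part of these tissues was not tested. The log2 fold changes of STR/ort over MRL/MpJ were 1.28 ± 0.20 at 1-day, 1.63 ± 0.30 at 1-week and 2.09 ± 0.21 at 2-weeks (SE, adjusted p = 4.8e-06, 6.15e-05 and 4.2e-09). Over C57BL/6J, STR/ort was 2.33-fold higher at 1-day, 4.1-fold at 1-week and 9.34-fold at 2-weeks (adjusted p = 2.3e-05, 1.53e-06 and 1.31e-11). Whether these strain differences changed with time was not tested, and time and batch cannot be told apart at 2-weeks. Between MRL/MpJ and C57BL/6J Lep was called at 2-weeks and at no earlier time. At 2-weeks C57BL/6J was lower by a log2 difference of 1.13 ± 0.28 SE with no overlap (log2 fold change -1.13, adjusted p = 0.0033). The sums of 4 tissues in these C57BL/6J and MRL/MpJ joints did not overlap, at 359 to 419 against 287 to 342 CPM for macrophage, 304 to 352 against 270 to 292 CPM for endothelium, 2169 to 2636 against 1220 to 1789 CPM for cartilage and 812 to 925 against 645 to 756 CPM for bone markers, and their part was not tested.

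**Figure D1:**
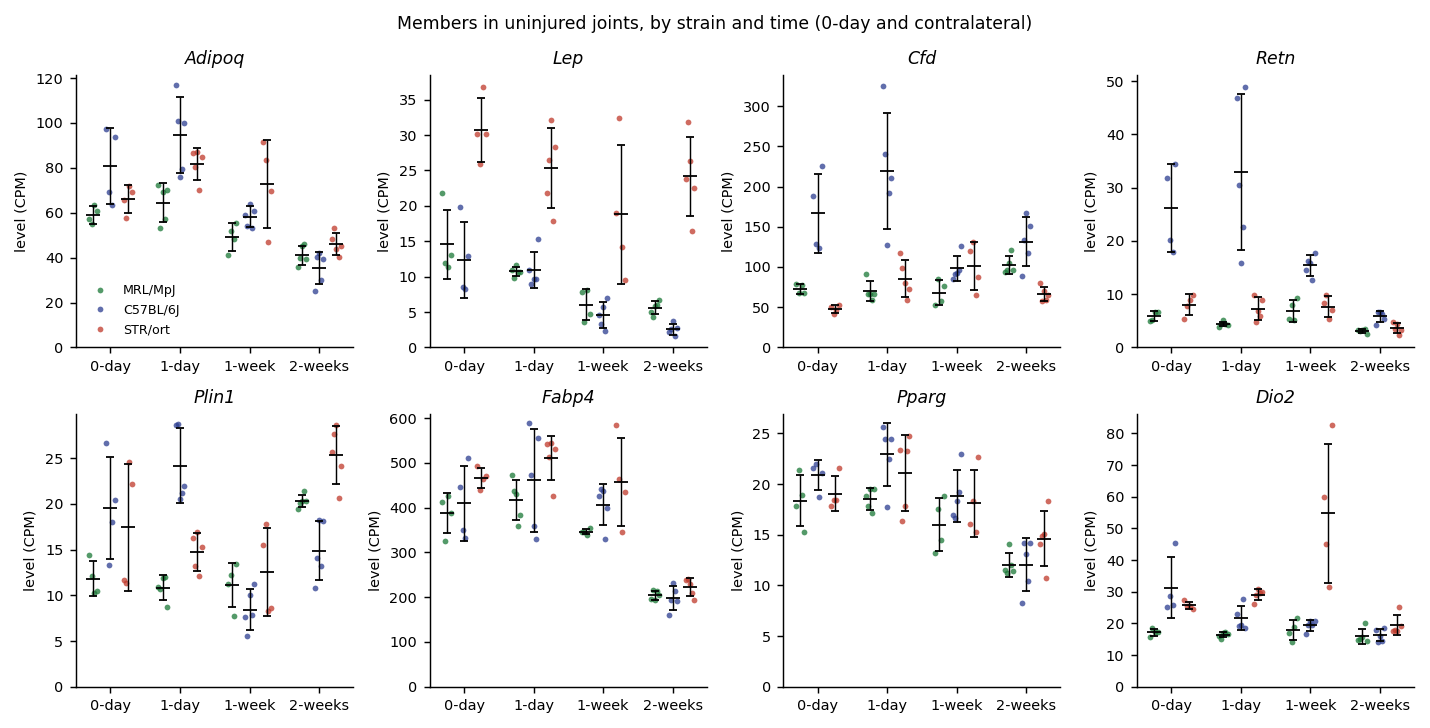
Level (CPM, linear axis from 0) of 8 members in uninjured joints, with time on the x axis, 1 point per library, and bars for the mean and SD of each strain. Lep points of STR/ort lie above those of the other strains at each time (30.7 ± 4.47 CPM at 0-day), and Retn points of C57BL/6J lie above the others at 0-day, 1-day and 1-week.

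Retn was higher in C57BL/6J than in both other strains. At 0-day its levels were 31.9, 20.2, 17.9 and 34.4 CPM in C57BL/6J, against 4.89, 5.23, 6.72 and 6.72 CPM in MRL/MpJ and 5.34, 7.82, 8.88 and 9.94 CPM in STR/ort. The lowest C57BL/6J library was above the highest of both other strains. The sum of 5 macrophage markers stood apart in the same way (440 to 473 CPM in C57BL/6J against 280 to 360 CPM in the others, with 3 of 5 higher than in MRL/MpJ), and its part in the Retn and Cfd results was not tested. C57BL/6J exceeded MRL/MpJ 4.65-fold (log2 fold change 2.22 ± 0.22 SE, adjusted p = 4.67e-07) and STR/ort fell below C57BL/6J by 1.75 ± 0.20 SE on the log2 scale (adjusted p = 3.56e-06). In contralateral joints C57BL/6J stayed above MRL/MpJ without overlap, by 2.93 ± 0.26 at 1-day, 1.15 ± 0.21 at 1-week and 0.89 ± 0.23 at 2-weeks (log2, SE, adjusted p = 2.19e-10, 0.000165 and 0.00511). Against STR/ort the log2 fold changes of STR/ort over C57BL/6J were -2.15 ± 0.24, -1.01 ± 0.21 and -0.70 ± 0.23 (SE, adjusted p = 3.65e-08, 0.000243 and 0.0256), with overlap at 2-weeks, where the call was lost without C57BL/6J contralateral library 2, 3 or 4 or STR/ort contralateral library 2 or 4 (adjusted p up to 0.0851). Between STR/ort and MRL/MpJ, Retn was called at 1-day alone (log2 fold change 0.79 ± 0.28 SE, adjusted p = 0.0212, with overlap), and this call was lost without STR/ort library 1 or 5 (adjusted p up to 0.076), under scaling by housekeeping genes (adjusted p = 0.055) and under RUVg, which removes 1 factor of unwanted variation estimated from housekeeping genes (adjusted p = 0.174).

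Cfd had its highest levels in the same strain at 0-day and 1-day. At 0-day it stood at 188, 129, 124 and 225 CPM in C57BL/6J, 79.1, 67.3, 77.7 and 67.9 CPM in MRL/MpJ, and 50.6, 41.9, 46.8 and 52.6 CPM in STR/ort. No strains overlapped. C57BL/6J was 2.34-fold above MRL/MpJ (log2 fold change 1.23 ± 0.15 SE, adjusted p = 3.65e-06) and STR/ort was lower than C57BL/6J (-1.83 ± 0.15 SE, adjusted p = 4.66e-08) and than MRL/MpJ (-0.60 ± 0.15 SE, adjusted p = 0.00504). The last value lies near the fold threshold and was not called without MRL/MpJ library 1 or 3 or STR/ort library 2, under RUVg (-0.58) or with the genes that follow muscle (r above 0.8 to the fast muscle markers) left out of the scaling (-0.56). In contralateral joints of 1-day the levels were 219 ± 72.5, 69.9 ± 12.2 and 85.5 ± 22.5 CPM in C57BL/6J, MRL/MpJ and STR/ort (SD, n = 5), and C57BL/6J exceeded MRL/MpJ by 1.68 ± 0.19 SE on the log2 scale (adjusted p = 2.77e-08).

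The Cfd order changed later. At 1-week C57BL/6J (98.2 ± 16.1 CPM, n = 5) and STR/ort (101 ± 30.1 CPM, n = 4) lay within 1 SD of each other, and both exceeded MRL/MpJ (67.9 ± 15.5 CPM, n = 4), where STR/ort was called against MRL/MpJ (log2 fold change 0.59 ± 0.20 SE, adjusted p = 0.0191) and C57BL/6J was not (0.54, adjusted p = 0.0556). That call was lost without MRL/MpJ library 1 or 3 or STR/ort library 1 or 2 (adjusted p up to 0.0948), under scaling by housekeeping genes (adjusted p = 0.0681) and under RUVg (0.12 ± 0.34 SE, adjusted p = 0.836), and fell below the fold threshold with the genes that follow muscle left out of the scaling (0.58). At 2-weeks STR/ort was again the lowest strain, at 66.4 ± 9.03 CPM against 103 ± 11.4 in MRL/MpJ and 131 ± 30.2 in C57BL/6J (n = 5 each). It did not overlap with either (log2 fold change -0.64 ± 0.18 and -0.99 ± 0.18 SE, adjusted p = 0.00635 and 0.000115), and leaving out contralateral library 4 of MRL/MpJ or scaling by housekeeping genes (-0.58) put the difference to that strain below the fold threshold.

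Adipoq, a hormone made by fat cells, was rarely called. Its means in uninjured joints lay between 59.1 and 80.9 CPM at 0-day, 64.4 and 94.7 at 1-day, 49.3 and 72.8 at 1-week and 35.4 and 46 at 2-weeks. In the 36 comparisons made here it was called 2 times, with an unadjusted p below 0.05 in 17. C57BL/6J exceeded MRL/MpJ in contralateral joints of 1-day, with levels of 117, 101, 75.8, 79.7 and 99.9 CPM against 72.3, 53, 69.3, 57.2 and 70.3 CPM and no overlap (log2 fold change 0.59 ± 0.12 SE, adjusted p = 0.000248). This difference is at the fold threshold, and leaving out any of 10 of the 30 libraries of that time put it below 1.5-fold. So did RLE size factors, scaling by housekeeping genes, the filterByExpr filter, DESeq2 (0.58 in each) and leaving the genes that follow muscle out of the scaling (0.57). Conversely Adipoq was called in STR/ort over MRL/MpJ at 1-week by DESeq2 (0.59, adjusted p = 0.000248) and under RUVg (0.74, adjusted p = 0.0216).

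Plin1 was higher in C57BL/6J than in MRL/MpJ early on. The levels at 0-day were 26.7, 13.3, 18 and 20.4 CPM against 14.4, 12.1, 10.3 and 10.5 CPM, with overlap (log2 fold change 0.74 ± 0.24 SE, adjusted p = 0.0208), and the call was lost without C57BL/6J library 1 or MRL/MpJ library 2, 3 or 4 (adjusted p up to 0.0802). STR/ort and C57BL/6J were not called at 0-day (-0.21 ± 0.22 SE, adjusted p = 0.509), but were under RUVg (-0.90, adjusted p = 0.00865) and without STR/ort libraries 3 and 4 (-0.79, adjusted p = 0.0102). In contralateral joints of 1-day the groups did not overlap: C57BL/6J stood at 24.2 ± 4.11, MRL/MpJ at 10.8 ± 1.35 and STR/ort at 14.7 ± 2.07 CPM (SD, n = 5). C57BL/6J was 2.28-fold above MRL/MpJ (log2 fold change 1.19 ± 0.14 SE, adjusted p = 5.11e-08) and STR/ort was below C57BL/6J (-0.70 ± 0.13 SE, adjusted p = 0.000162). In these joints the sums of C57BL/6J and MRL/MpJ did not overlap for the macrophage (459 to 522 against 281 to 356 CPM), bone (2226 to 2675 against 1256 to 1681 CPM) and cartilage markers (2894 to 3846 against 976 to 2189 CPM), of which 2 of 5, 4 of 4 and 4 of 5 were called higher in C57BL/6J, and their part was not tested. At 2-weeks the order between these strains was the opposite, with STR/ort at 25.3 ± 3.17 and C57BL/6J at 14.9 ± 3.22 CPM (SD, n = 5; log2 fold change of STR/ort over C57BL/6J 0.75 ± 0.21 SE, adjusted p = 0.00789). Whether the strain difference changed with time was not tested, and time and batch cannot be told apart there.

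Fabp4 and Pparg, the transcription factor that drives the fat cell programme, were called in none of the 36 comparisons by edgeR or by DESeq2. An unadjusted p below 0.05 was found in 9 comparisons for Fabp4 and in 6 for Pparg. Under RUVg Fabp4 was called higher in contralateral joints of STR/ort than of MRL/MpJ at 1-day (0.60 ± 0.23 SE, adjusted p = 0.0489) and 1-week (0.83 ± 0.22 SE, adjusted p = 0.00544), where the values were otherwise 0.34 and 0.42. Pparg means lay between 10.7 and 22.9 CPM over the 21 groups and Fabp4 means between 198 and 511 CPM.

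Over the 9 comparisons of strains in contralateral joints, 33 of 90 tests of members were called, where 15.2% of all tests of genes were. At 1-day 3 members were called between STR/ort and MRL/MpJ (22.6% of all genes), 5 between STR/ort and C57BL/6J (10.5%) and 4 between C57BL/6J and MRL/MpJ (14.8%). At 1-week the counts were 4 (24.4%), 4 (22.2%) and 1 (8.53%), and at 2-weeks 4 (13.8%), 6 (9.78%) and 2 (9.83%) in the same order. Of the 8 fast muscle markers 6 were lower in STR/ort than in MRL/MpJ at 1-day and 8 at 1-week (27932 to 53225 against 61099 to 89595 CPM in sum), 4 were lower in STR/ort than in C57BL/6J at 1-week, and 0 were called between strains at 2-weeks. Their part in the results was not tested.

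Ucp1, the uncoupling protein that defines thermogenic fat, was nearly absent from C57BL/6J joints. At 0-day its counts were 0 in all 4 C57BL/6J libraries, 1, 8, 1 and 12 in MRL/MpJ and 0, 1, 233 and 146 in STR/ort. STR/ort libraries 3 and 4 held nearly all of the STR/ort counts, and libraries 1 and 2 lay within the MRL/MpJ range or below it. Summed over libraries, STR/ort was at least 155-fold above C57BL/6J, against a floor of 3 counts over the 4 libraries (0.0672 CPM), and MRL/MpJ at least 10.8-fold. The difference between MRL/MpJ and C57BL/6J was not called by edgeR (adjusted p = 0.3), but was by DESeq2 (adjusted p = 0.044) and without STR/ort libraries 3 and 4 (adjusted p = 0.00455). STR/ort was called above MRL/MpJ (log2 fold change 3.81 ± 1.19 SE, adjusted p = 0.0211), and the call was lost without MRL/MpJ library 1, 2 or 3 or STR/ort library 3 or 4 (adjusted p up to 0.0849). Without STR/ort libraries 3 and 4 together the direction turned (-3.49 ± 1.40 SE, adjusted p = 0.0859), and the call was lost under RUVg (1.61 ± 0.99 SE, adjusted p = 0.232) and in DESeq2 (3.72 ± 2.05 SE, adjusted p = 0.155). The call between STR/ort and C57BL/6J (adjusted p = 0.00252, with overlap) was lost without those libraries and under RUVg (adjusted p = 0.502 and 0.166), and stood in DESeq2.

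Cidea, a lipid droplet protein of brown fat, was high in the same libraries. It stood at 1.75, 2.49, 26.6 and 15.2 CPM in STR/ort at 0-day, against 0.998, 1.51, 1.72 and 2.59 CPM in MRL/MpJ and 0.272, 0.804, 0.822 and 0.687 CPM in C57BL/6J. Libraries 3 and 4 were above all other libraries, and libraries 1 and 2 lay in the MRL/MpJ range. Other brown fat markers in STR/ort libraries 1 to 4 stood at 2, 0, 2 and 4 counts of the fatty acid elongase Elovl3, 90.7, 88.6, 72.4 and 126 CPM of Cox8b and 3.98, 3.32, 4.28 and 4.17 CPM of the regulator Prdm16. Zic1 stood at 1.16, 1.18, 2.19 and 1.84 CPM and Otop1 at 0, 2, 14 and 3 counts. Elovl3, Cox8b and Prdm16 did not set libraries 3 and 4 apart in the way of Ucp1 and Cidea, while Zic1 and Otop1 were somewhat higher in them. STR/ort was called above MRL/MpJ (log2 fold change 2.83 ± 0.68 SE, adjusted p = 0.00327) and above C57BL/6J (4.08 ± 0.73 SE, adjusted p = 0.000294). Without libraries 3 and 4 the difference to MRL/MpJ was 0.38 ± 0.38 SE (adjusted p = 0.527), while that to C57BL/6J was still called. Under RUVg the difference to C57BL/6J was 1.4 ± 0.55 SE (adjusted p = 0.0887). Plin1 was also higher in these libraries, at 24.6 and 22.2 CPM against 11.7 and 11.3 CPM in libraries 1 and 2. Adipoq was slightly higher (72 and 69.3 against 65.5 and 57.7 CPM), whereas Fabp4 (463 and 471 against 493 and 440 CPM) was not set apart.

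**Figure D2:**
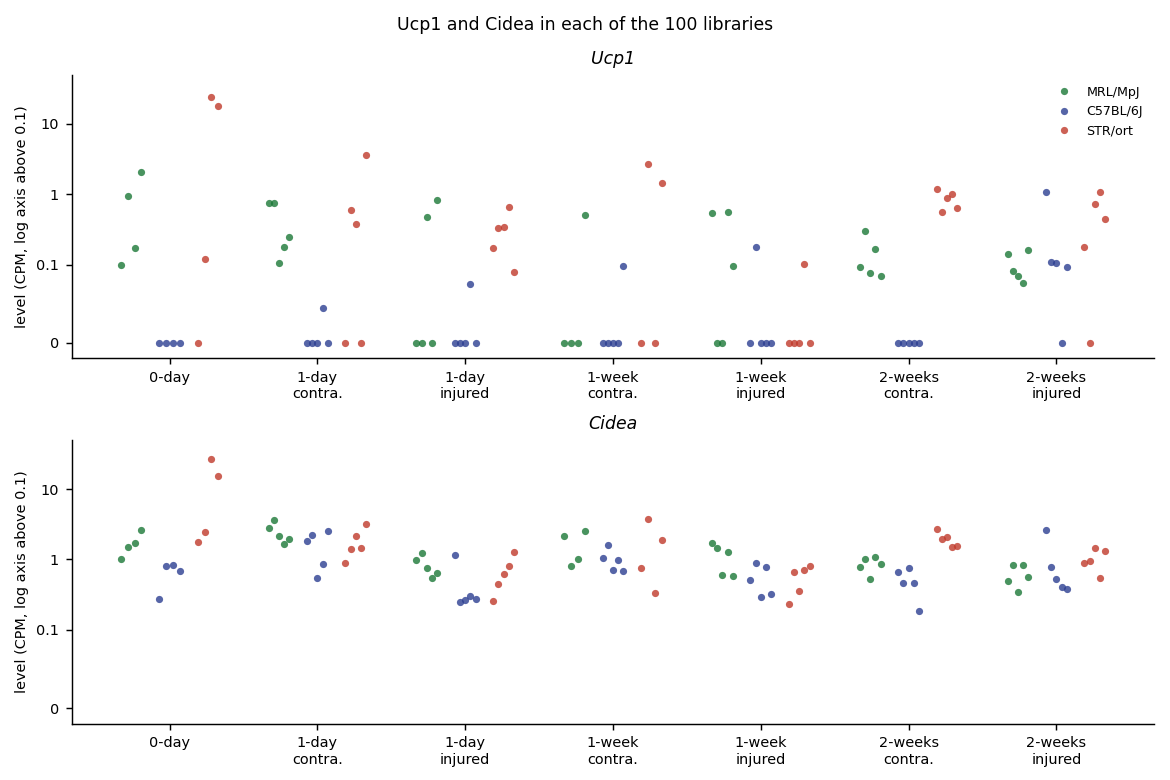
Level of Ucp1 and Cidea (CPM, log axis above 0.1 and linear below) in each library, by group on the x axis and coloured by strain. STR/ort libraries 3 and 4 at 0-day stand at 24.3 and 17.9 CPM of Ucp1 and 26.6 and 15.2 CPM of Cidea, above all other libraries.

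In contralateral joints the Ucp1 counts of STR/ort were lower and again uneven at 1-day (0, 6, 4, 0 and 44) and 1-week (0, 22, 0 and 13). At 2-weeks they were 10, 6, 8, 12 and 7, so that every library had a count. C57BL/6J held 1 count in all at 1-day, 1 at 1-week and 0 at 2-weeks, and MRL/MpJ libraries held 0 to 7 counts. At 2-weeks STR/ort did not overlap with either strain, and was above MRL/MpJ (0.85 ± 0.255 against 0.149 ± 0.0931 CPM, SD, n = 5; log2 fold change 2.43 ± 0.70 SE, adjusted p = 0.00754) and at least 13.9-fold above C57BL/6J. At 1-day and 1-week the ratio of STR/ort to C57BL/6J was 61.4 (95% exact counting interval 10.6 to 2468) and 46.9 (7.89 to 1906), and the interval covers counting error only. The call between these strains at 1-day was lost without STR/ort library 5 (adjusted p = 0.0925) and under RUVg (0.122), and that at 1-week in DESeq2 (0.0995). Against MRL/MpJ, STR/ort was called at 1-week (35 against 5 counts, log2 fold change 2.77 ± 1.04 SE, adjusted p = 0.0312, with overlap). That call was lost without MRL/MpJ contralateral library 1, 2 or 3 or STR/ort contralateral library 2 or 4 (adjusted p up to 0.249), in DESeq2 and under RUVg.

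Cidea followed Ucp1 at 2-weeks, at 1.96 ± 0.485 CPM in STR/ort, 0.853 ± 0.217 in MRL/MpJ and 0.508 ± 0.222 in C57BL/6J (SD, n = 5), with no overlap between STR/ort and the others. The log2 fold change was 1.16 ± 0.37 over MRL/MpJ and 1.91 ± 0.42 over C57BL/6J (SE, adjusted p = 0.0145 and 0.000875). Beside both genes at 2-weeks, the synovial fibroblast sum was 1252 to 2347 CPM in STR/ort against 494 to 734 CPM in the others (3 of 5 called higher than in MRL/MpJ and 1 of 5 than in C57BL/6J), and the erythroid sum was 1258 to 1931 against 2634 to 3907 CPM (5 of 5 lower than in each). Their part was not tested. At 1-day and 1-week Cidea was called between no strains in contralateral joints.

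Dio2, the deiodinase that makes active thyroid hormone in brown fat and in other tissues, was lowest in MRL/MpJ at 0-day. It stood at 15.7, 18.6, 17.2 and 17.2 CPM in MRL/MpJ, 25.3, 28.7, 25.7 and 45.5 CPM in C57BL/6J and 27.3, 25.6, 25.5 and 24.5 CPM in STR/ort. MRL/MpJ overlapped with neither, and C57BL/6J exceeded it 1.87-fold (log2 fold change 0.91 ± 0.15 SE, adjusted p = 0.000136) and STR/ort did so 1.51-fold (0.59 ± 0.16 SE, adjusted p = 0.00665, a call lost below the fold threshold without MRL/MpJ or STR/ort library 1). The synovial fibroblast sum was lowest in MRL/MpJ too, at 1131 to 1493 CPM against 1716 to 2857 in C57BL/6J (4 of 5 called) and 2703 to 6290 CPM in STR/ort (3 of 5 called), with no overlap with MRL/MpJ. In contralateral joints STR/ort exceeded MRL/MpJ at 1-day (29.1 ± 1.74 against 16.5 ± 0.897 CPM, log2 fold change 0.86 ± 0.10 SE, adjusted p = 1.65e-08). At 1-week STR/ort stood at 59.8, 45.1, 31.5 and 82.7 CPM, above every MRL/MpJ and C57BL/6J library (14.1 to 21.8 CPM), with log2 fold changes of 1.62 ± 0.19 and 1.5 ± 0.17 SE (adjusted p = 4.28e-08 and 4.02e-08). In the same joints the sums of STR/ort and of the others were 6339 to 18945 and 996 to 1484 CPM for synovial fibroblast markers (3 of 5 higher than in each), 2620 to 3812 and 1258 to 1794 CPM for bone markers (4 of 4 higher) and 4430 to 5798 and 1016 to 2880 CPM for cartilage markers (4 of 5 higher than in MRL/MpJ and 5 of 5 than in C57BL/6J). The part of these tissues in the Dio2 results was not tested. At 2-weeks Dio2 was called between no strains, with means of 16, 16.2 and 19.5 CPM in MRL/MpJ, C57BL/6J and then STR/ort.

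To ask how injury moved these genes, injured joints were compared with contralateral joints in each strain. At 1-day and 1-week every called member was lower in the injured joint. Over the 9 comparisons 17 of 90 tests of members were called, where 4.32% of all tests of genes were. At 1-day 1 of 10 members fell in MRL/MpJ, where 2.02% of all genes were called and 0.497% were lower. DESeq2 called Retn there as well (-0.95 ± 0.29 SE, adjusted p = 0.0239, against -0.93 and adjusted p = 0.128 in edgeR). In C57BL/6J 3 fell (5.6% called, 1.34% lower) and in STR/ort 5 fell (4.31% called, 2.7% lower). At 1-week 2 fell in C57BL/6J (5.82% called, 1.07% lower) and 4 in STR/ort (9.21% called, 3.54% lower). In MRL/MpJ at 1-week 0 were called by edgeR and by DESeq2 (3.13% of all genes), and 1 had an unadjusted p below 0.05. At 2-weeks 0 were called in MRL/MpJ by either tool (1.16%; 1 with an unadjusted p below 0.05), and 1 member rose in C57BL/6J (2.95% called, 2.88% higher) and 1 in STR/ort (4.66% called, 4.34% higher). The median of the members at 1-day was -0.39, -0.37 and -0.68 on the log2 scale in MRL/MpJ, C57BL/6J and then STR/ort, against 0.01, -0.02 and -0.02 over all genes.

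Cfd and Retn fell in C57BL/6J. At 1-day Cfd stood at 158, 112, 86.8, 112 and 103 CPM in injured and 325, 240, 127, 192 and 211 CPM in contralateral joints. Retn stood at 19.4, 13.6, 11.2, 11.4 and 12.9 CPM against 46.8, 30.4, 15.9, 22.7 and 48.9 CPM. The groups overlapped by the highest injured library in both genes, and the log2 fold changes were -0.94 ± 0.18 for Cfd and -1.26 ± 0.23 for Retn (SE, adjusted p = 4e-04 and 0.000155). At 1-week the groups no longer overlapped. Cfd stood at 48.1 to 65.8 CPM against 85.1 to 126 CPM (log2 fold change -0.76 ± 0.18 SE, adjusted p = 0.00449), and Retn at 5.56, 5.79, 5.5, 6.08 and 4.44 CPM against 14.5, 16.3, 15.9, 12.6 and 17.8 CPM (-1.47 ± 0.20 SE, adjusted p = 2.89e-06). Other tissues were set apart in the same joints. At 1-day the sums in injured and contralateral joints were 644 to 779 and 459 to 522 CPM for the 5 macrophage markers (2 rose), 3077 to 4404 and 1852 to 2482 CPM for the 5 synovial fibroblast markers (2 rose) and 5602 to 7188 and 7996 to 10387 CPM for the 6 marrow neutrophil markers (0 called). At 1-week the synovial fibroblast sum was 2672 to 3003 against 996 to 1458 CPM (3 of 5 rose), and the fast muscle sum had a median of 42259 against 67016 CPM (2 of 8 fell). The slow muscle sum was 79.7 to 189 against 292 to 828 CPM. Their part in the results was not tested.

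In STR/ort Lep, Plin1, Cfd and Adipoq fell at 1-day. For Adipoq, Lep and Plin1, not called in C57BL/6J, the effects of these strains were not shown to differ (interaction, adjusted p = 0.364, 0.421 and 0.609). Lep stood at 9.82, 7.49, 19.9, 13.5 and 14.1 CPM in injured and 21.8, 26.5, 32.2, 17.8 and 28.3 CPM in contralateral joints, with 1 injured library inside the contralateral range (log2 fold change -0.96 ± 0.20 SE, adjusted p = 0.00122). Plin1 stood at 6.92 to 11.4 CPM against 12.1 to 16.9 CPM, with no overlap (-0.65 ± 0.14 SE, adjusted p = 0.00224, below the fold threshold without injured library 1). Cfd stood at 40 to 62.6 CPM against 59.5 to 117 CPM, where 1 injured library reached the contralateral range (-0.76 ± 0.19 SE, adjusted p = 0.00733). Adipoq stood at 50.2, 45.8, 65.9, 66 and 47.4 CPM against 86.8, 80.3, 87.3, 70.2 and 85 CPM, with no overlap and a value at the fold threshold (-0.59 ± 0.12 SE, adjusted p = 0.00119) that leaving out any of 16 of the 30 libraries, RUVg (-0.57) or filterByExpr (-0.58) put below 1.5-fold. Of the 8 fast muscle markers 5 fell in these joints, with a summed level of 16486 to 41698 CPM in injured and 30402 to 52677 CPM in contralateral joints, which overlapped, and the part of this in the result was not tested. With the genes that follow muscle left out of the scaling, 17 member tests were called between injured and contralateral joints, as before. This changes the scaling only and does not test the tissue content of the joints.

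At 1-week Cfd and Retn fell in STR/ort as in C57BL/6J. Cfd stood at 49.5, 43.9, 26.3, 64.1 and 58.2 CPM in injured and 120, 131, 65.4 and 87.6 CPM in contralateral joints, without overlap (log2 fold change -1.06 ± 0.19 SE, adjusted p = 0.000164). Retn stood at 2.67, 4.57, 1.69, 4.47 and 5.88 CPM against 8.29, 9.91, 5.34 and 7.09 CPM (-0.99 ± 0.24 SE, adjusted p = 0.00305), with the highest injured library inside the contralateral range. Of the fast muscle markers 7 of 8 fell in the same joints (13658 to 29986 against 27932 to 53225 CPM in sum). The 6 marrow neutrophil markers summed to 4600 to 6606 against 7632 to 10062 CPM (3 fell). The endothelium sum was higher in the injured joints, at 345 to 440 against 247 to 302 CPM, and the part of these tissues in the result was not tested. The labels do not name the animals at this time. STR/ort joints of the same number were taken as paired from their correlations (0.162 to 0.37), which does not settle the pairing. With the replicate number as a block Plin1 was called as well (-0.74 ± 0.18 SE, adjusted p = 0.00416, against -0.66 and adjusted p = 0.0703 without).

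Cidea fell at 1-day in all strains, at low counts. The summed counts were 45 in injured and 122 in contralateral joints of MRL/MpJ, 21 and 95 in C57BL/6J and 41 and 104 in STR/ort. The log2 fold changes were -1.50 ± 0.40, -1.79 ± 0.49 and -1.42 ± 0.42 (SE, adjusted p = 0.0264, 0.00928 and 0.0256), with no overlap in MRL/MpJ only. In those MRL/MpJ joints the synovial fibroblast sum was 2453 to 4238 against 1455 to 2332 CPM (1 of 5 rose), and its part was not tested. The call in MRL/MpJ was lost without injured library 3 or 4 or contralateral library 1 or 2 (adjusted p up to 0.0917), and that in STR/ort without injured library 1, 2 or 3 or contralateral library 3 or 5 (up to 0.12). At 1-week Cidea (26 against 58 counts, with overlap, -1.53 ± 0.53 SE, adjusted p = 0.038) fell in STR/ort. Leaving out injured library 1, 2 or 3 or contralateral library 2 or 4 ended this call (adjusted p up to 0.346), as did RUVg (0.0527). Ucp1 had 1 count in the injured and 35 in the contralateral libraries, a ratio of 44.5 (95% exact counting interval 7.48 to 1806) with an adjusted p of 0.00667, and all 35 counts came from contralateral libraries 2 and 4. Without library 2 the adjusted p was 0.0632, and DESeq2 gave no adjusted p for Ucp1 in this comparison.

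**Figure D3:**
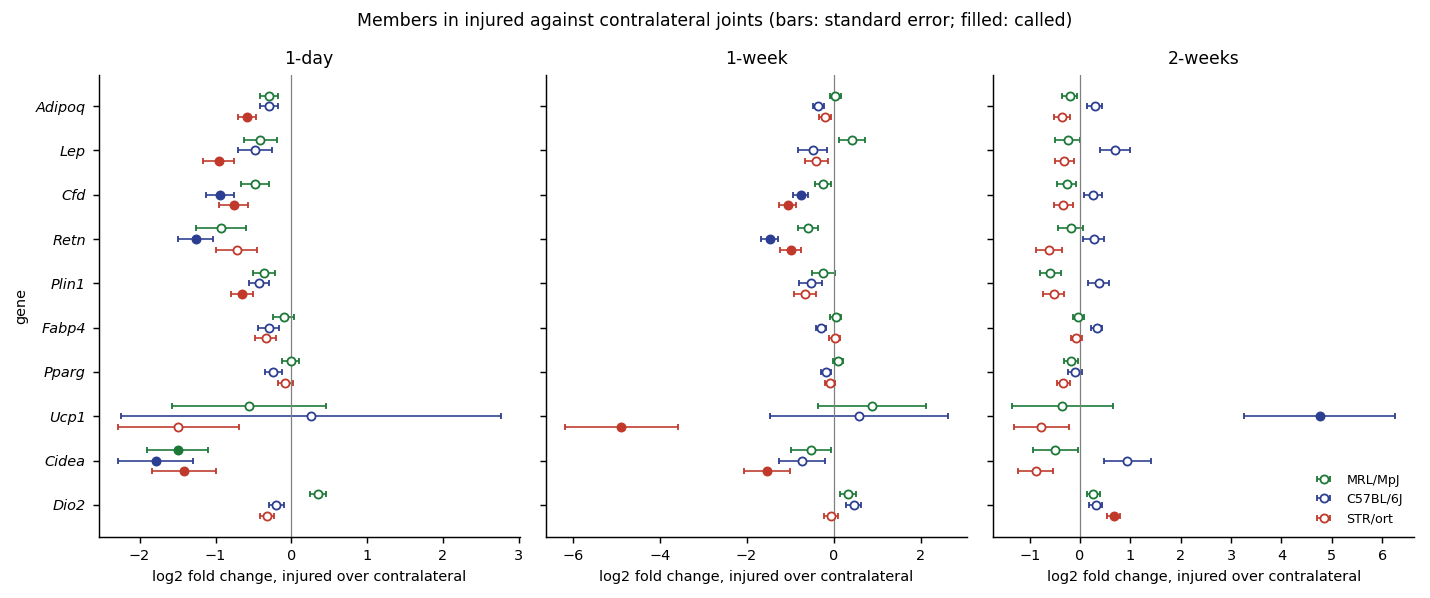
Log2 fold change of injured over contralateral joints (x axis, bars for the SE, filled points for called tests) of the 10 members (y axis) at each time, by strain, with a different x range in each panel. At 1-day and 1-week all filled points lie left of 0, and at 2-weeks the filled points are Ucp1 in C57BL/6J and Dio2 in STR/ort (0.67).

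At 2-weeks Dio2 rose in injured STR/ort joints, at 28.8, 31.1, 28.2, 31.7 and 36 CPM against 17.7, 17.9, 17.7, 25.1 and 19.2 CPM with no overlap (1.59-fold, log2 fold change 0.67 ± 0.13 SE, adjusted p = 0.000214). The sum of the cartilage markers (3675 to 5392 against 2111 to 3163 CPM) and that of the endothelium markers (356 to 382 against 297 to 319 CPM) did not overlap between these joints either, and the synovial fibroblast sum had a median of 2633 against 1337 CPM, with overlap. Their part was not tested. The labels name the animal of each joint at 2-weeks, and with the animal as a replicate block Cidea was called lower in injured STR/ort joints as well (-0.90 ± 0.25 SE, adjusted p = 0.0179, against -0.88 and adjusted p = 0.0998 without). The Ucp1 call in C57BL/6J rested on 13 counts in injured library 1, beside 1, 1, 0 and 1 in the other injured and 0 in all contralateral libraries, which gives at least 4.96-fold (adjusted p = 0.0494). It was lost when any of 22 of the 30 libraries was left out, and without that library the adjusted p was 0.282. DESeq2 gave no adjusted p for it. In the same C57BL/6J joints the injured and contralateral sums were 1079 to 1433 and 494 to 691 CPM for synovial fibroblast and 5247 to 6408 and 6951 to 8347 CPM for marrow neutrophil markers, and their part was not tested.

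That C57BL/6J library stood apart in most fat genes. Adipoq was at 69.3 CPM against 31.6 to 41.2 CPM in the other injured libraries, Cfd at 248 against 115 to 150 CPM, Plin1 at 38.3 against 12.9 to 15.6 CPM, Fabp4 at 338 against 215 to 244 CPM and Cidea at 2.62 against 0.385 to 0.772 CPM. The contralateral joint that the labels give to the same animal was the lowest of its group in Adipoq (25.2 CPM), Cfd (88.2 CPM), Plin1 (10.8 CPM) and Pparg (8.3 CPM). Without the injured library Plin1 was called lower in injured MRL/MpJ joints (log2 fold change -0.59 ± 0.13 SE, adjusted p = 0.00926) and Retn and Cidea lower in injured STR/ort joints (adjusted p = 0.0476 and 0.0175). All groups of a time share 1 estimate of the spread.

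Whether the injury effect differed between strains was tested as an interaction. Of 90 tests 1 was called, by edgeR and by DESeq2 (0.557% of all tests of genes), and 24 had an unadjusted p below 0.05, of which 8 were between STR/ort and C57BL/6J and 7 between C57BL/6J and MRL/MpJ at 2-weeks. The called value was Dio2 at 1-day, where the injury effect in STR/ort was below that in MRL/MpJ by 0.67 ± 0.14 SE on the log2 scale (log2 difference -0.67, adjusted p = 0.0304, where 0.162% of all genes were called and 0.139% were lower). Dio2 stood at 23.7 ± 2.56 CPM in injured and 29.1 ± 1.74 CPM in contralateral STR/ort joints and at 20.7 ± 1.54 and 16.5 ± 0.897 CPM in MRL/MpJ (SD, n = 5). It was lost when any of 16 of the 30 libraries was left out (adjusted p up to 0.1). For the other pairs at 1-day 2.66% (STR/ort and C57BL/6J) and 0.318% of all genes were called, at 1-week 0.884%, 0.491% and 0%, and at 2-weeks 0.451%, 0.0462% and 0%. With the replicate block a further test, Cfd between STR/ort and MRL/MpJ at 1-week, was called (-0.83 ± 0.22 SE, adjusted p = 0.041), so that 2 were called. The other falls listed above were not shown to differ between strains in the fit with or without the block.

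To see whether the uninjured knee of an injured mouse kept its level, contralateral joints were set against 0-day joints within batch 1. MRL/MpJ members were called in neither comparison (0.0924% of all genes at 1-day and 0% at 1-week), with 0 and 1 unadjusted p below 0.05 and 0 calls by DESeq2. C57BL/6J had 0 calls at 1-day by both tools (0.0693%; 1 unadjusted p below 0.05) and 5 at 1-week (5.72%), all lower (4.84%). STR/ort had 3 at 1-day (9.92%), 1 higher (2.58%) and 2 lower (7.35%). At 1-week it had 5 (13.6%), 2 higher (5.37%) and 3 lower (8.2%). These comparisons share the 0-day libraries of their strain. In all 13 of 60 tests were called, where 4.9% of all tests of genes were. The 13 calls became 7 under RUVg with 1 factor and 8 without STR/ort libraries 3 and 4 of 0-day.

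In C57BL/6J at 1-week Plin1 stood at 7.62, 5.51, 10, 7.85 and 11.2 CPM, below all 0-day libraries (log2 fold change -1.23 ± 0.22 SE, adjusted p = 4.51e-05). Lep stood at 4.62, 3.28, 5.72, 2.27 and 6.98 CPM, also below all 0-day libraries (-1.46 ± 0.29 SE, adjusted p = 0.00021). Cfd (-0.80, with overlap), Retn (-0.79) and Dio2 (-0.72 on the log2 scale) were lower too (adjusted p = 0.00284, 0.00978 and 0.000408). These 3 calls were lost without 0-day library 4, where the adjusted p of Cfd was 0.0512 and that of Retn 0.0899 and Dio2 was below the fold threshold, and Retn also without 0-day library 1. The summed fast muscle markers ranged from 41451 to 72372 CPM at 1-week and from 32977 to 52940 CPM at 0-day. Bone and synovial markers were lower at 1-week without overlap, at 1269 to 1794 against 2145 to 2972 CPM for the sum of 4 bone markers (4 called) and 996 to 1458 against 1716 to 2857 CPM for the 5 synovial fibroblast markers (3 called). The macrophage sum was lower as well (366 to 436 against 440 to 473 CPM), and the erythroid (3405 to 4944 against 2591 to 3096 CPM) and slow muscle sums (292 to 828 against 82.5 to 141 CPM) were higher, none with overlap. The part of these tissues in the result was not tested.

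In STR/ort Cfd was higher in contralateral joints than at 0-day, without overlap, at 1-day (117, 98.6, 80.5, 59.5 and 72.1 CPM, log2 fold change 0.84 ± 0.21 SE, adjusted p = 0.00141) and at 1-week (1.05 ± 0.22 SE, adjusted p = 9.79e-05). Dio2 was higher at 1-week (1.07 ± 0.16 SE, adjusted p = 1.9e-07, no overlap). The Cfd call at 1-week and the Dio2 call held under every alternative, that of Cfd at 1-day under all but RUVg (adjusted p = 0.0868). The summed fast muscle markers stood at 75097 to 85374 CPM at 0-day, 30402 to 52677 CPM at 1-day and 27932 to 53225 CPM at 1-week, with 8 of 8 called lower at both times. The macrophage sum was 280 to 353 CPM at 0-day, 438 to 515 at 1-day and 407 to 591 at 1-week, and the synovial fibroblast sum 2703 to 6290, 6724 to 9488 and 6339 to 18945 CPM. The bone sum was 1859 to 2590 CPM at 0-day and 2620 to 3812 CPM at 1-week. The part of these tissues was not tested. With the genes that follow muscle left out of the scaling these calls were kept, which bears on the scaling and not on the tissue content. Ucp1 and Cidea were lower at both times (-3.48 and -2.65 at 1-day, -3.45 and -2.85 at 1-week on the log2 scale; adjusted p = 0.000124, 2.9e-06, 0.000457 and 4.48e-06). Without 0-day libraries 3 and 4, and under RUVg, all 4 calls were lost, and DESeq2 lost those of Ucp1 (adjusted p = 0.111 and 0.157). Without the libraries the values were -0.19 and -0.38 for Cidea, and Ucp1 turned to 3.87 and 3.91. Lep was lower at 1-week (-0.74 ± 0.26 SE, adjusted p = 0.0224, with overlap), which was lost without 0-day library 3 or contralateral library 3 or 4 (adjusted p up to 0.136) and without 0-day libraries 3 and 4 together (adjusted p = 0.194), and under RUVg (adjusted p = 0.6).

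Other genes of the fat pathways were counted in the injury comparisons. Of 24 measured genes of lipid storage and breakdown, 4 fell at 1-day in MRL/MpJ, 6 fell and 1 rose in C57BL/6J, and 7 fell and 1 rose in STR/ort (2.02%, 5.6% and 4.31% of all genes called). At 1-week 6 fell in C57BL/6J and 9 fell and 1 rose in STR/ort (5.82% and 9.21%). In MRL/MpJ at 1-week and in the 3 strains at 2-weeks edgeR called 0 of these genes, where 5 and then 1, 4 and 12 (MRL/MpJ, C57BL/6J and then STR/ort) had an unadjusted p below 0.05. DESeq2 called 2 in STR/ort at 2-weeks and 0 in the other 3. The list medians were -0.17, -0.43 and -0.28 at 1-day in MRL/MpJ, C57BL/6J and then STR/ort against 0.01, -0.02 and -0.02 over all genes. Pck1, which makes the glycerol backbone of stored fat, had the smallest adjusted p of the genes that fell at 1-day in MRL/MpJ and C57BL/6J (-1.56 ± 0.23 and -1.28 ± 0.23 SE on the log2 scale, adjusted p = 4.22e-05 and 0.000116) and at 1-week in STR/ort (-1.48 ± 0.26 SE, adjusted p = 0.000117). Nnat had it at 1-day in STR/ort (-2.12 ± 0.25 SE, adjusted p = 4.31e-07), and Lpl, the lipoprotein lipase, at 1-week in C57BL/6J (-0.66 ± 0.14 SE, adjusted p = 0.000909). The gene that rose was the caveolae protein Cav1 at 1-day in C57BL/6J (0.70 ± 0.11 SE, adjusted p = 3.84e-05) and at 1-week in STR/ort (0.79 ± 0.14 SE, adjusted p = 0.000164), and the droplet coat protein Plin2 at 1-day in STR/ort (0.62 ± 0.10 SE, adjusted p = 3.22e-05).

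Of 10 lipid synthesis genes, 4 fell at 1-day in C57BL/6J (1.34% of all genes were lower), of which the fatty acid synthase Fasn had the smallest adjusted p (-1.33 ± 0.17 SE on the log2 scale, adjusted p = 1.03e-06). In STR/ort 2 fell (2.7% of all genes), of which Thrsp, a gene of lipogenic cells, had the smallest (-1.44 ± 0.22 SE, adjusted p = 3.84e-05). At 1-week 3 fell in C57BL/6J (1.07%) and 3 in STR/ort (3.54%), with the carbohydrate-responsive factor Mlxipl first in each (-0.69 ± 0.15 and -0.98 ± 0.19 SE, adjusted p = 0.00192 and 0.000292). In the other 5 injury comparisons edgeR called 0, with 1 to 5 unadjusted p below 0.05, and DESeq2 called 1 in MRL/MpJ at 1-week.

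Among 13 other adipokines and receptors 2 rose and 1 fell at 1-day in MRL/MpJ, 2 rose and 3 fell in C57BL/6J, and 2 rose and 1 fell in STR/ort (2.02%, 5.6% and 4.31% of all genes called). At 1-week 2 rose and 1 fell in MRL/MpJ, 2 rose in C57BL/6J, and 3 rose and 3 fell in STR/ort (3.13%, 5.82% and 9.21%). At 2-weeks 1, 3 and 2 rose in the same order (1.16%, 2.95% and 4.66%). Retnla, an adipokine that alternatively activated macrophages make too, fell at 1-day in every strain, by 1.92 ± 0.39, 2.05 ± 0.27 and 2.86 ± 0.28 in MRL/MpJ, C57BL/6J and then STR/ort (log2, SE, adjusted p = 0.00241, 1.65e-06 and 1.37e-08). At 1-week it fell by 1.74 ± 0.38 in MRL/MpJ and 2.60 ± 0.34 in STR/ort (log2, SE, adjusted p = 0.00324 and 1.7e-06). Angptl4, an inhibitor of lipoprotein lipase, rose at 1-day by 1.15 ± 0.19, 1.97 ± 0.19 and 1.60 ± 0.18 in MRL/MpJ, C57BL/6J and then STR/ort (adjusted p = 0.000224, 7.86e-09 and 2.43e-07) and at 2-weeks in STR/ort by 1.53 ± 0.17 (adjusted p = 6.24e-08). Apln, the ligand of the apelin receptor, rose at 1-week by 0.88 ± 0.21, 1.27 ± 0.19 and 1.66 ± 0.18 in that order (adjusted p = 0.0088, 1.57e-05 and 1.14e-07) and at 2-weeks by 0.77 ± 0.21 in MRL/MpJ and 1.12 ± 0.19 in C57BL/6J (adjusted p = 0.0488 and 9.37e-05).

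Of the 10 adipogenic regulators 1 rose at 1-day in MRL/MpJ (2.02% of all genes called) and 2 fell in STR/ort (4.31%). In C57BL/6J at 1-day edgeR and DESeq2 called 0 (5.6%), with 4 unadjusted p below 0.05. At 1-week 1 rose in MRL/MpJ (3.13%), 3 rose in C57BL/6J (5.82%) and 2 rose and 1 fell in STR/ort (9.21%), and at 2-weeks 1, 2 and 1 rose (1.16%, 2.95% and 4.66%). Dlk1, which marks preadipocytes and regenerating muscle, rose at 2-weeks by 1.01 ± 0.27, 1.38 ± 0.33 and 1.00 ± 0.32 (log2, SE, adjusted p = 0.0411, 0.00666 and 0.0355). At 1-week Dlk1 rose in MRL/MpJ and STR/ort (1.21 ± 0.27 and 1.68 ± 0.35 SE, adjusted p = 0.00499 and 0.000858), and the preadipocyte factor Zfp423 had the smallest adjusted p in C57BL/6J (0.74 ± 0.11 SE, adjusted p = 2.06e-05). The other leading calls were Cebpb, which rose at 1-day in MRL/MpJ (0.63, adjusted p = 0.0192), Ebf2, which fell at 1-day in STR/ort (-0.83, adjusted p = 0.0144), and Klf15, which fell at 1-week in STR/ort (-0.77, adjusted p = 0.0381).

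Of 18 other brown and beige genes, 2, 1 and 1 were called at 1-day in MRL/MpJ, C57BL/6J and then STR/ort (2.02%, 5.6% and 4.31% of all genes) and 3 and 3 at 1-week in C57BL/6J and STR/ort (5.82% and 9.21%). In the other comparisons edgeR called 0, with 1 to 4 unadjusted p below 0.05, and DESeq2 called 1 in STR/ort at 2-weeks and 0 in the other 3. Ppargc1a, a coactivator of mitochondrial genes that muscle uses as well, fell at 1-day in MRL/MpJ and STR/ort (-1.06 ± 0.20 and -1.47 ± 0.27 SE on the log2 scale, adjusted p = 0.00126 and 0.000338), and Ppara fell at 1-week in C57BL/6J (-1.05 ± 0.20 SE, adjusted p = 0.00032). Tbx1 rose at 1-day in C57BL/6J (0.99, adjusted p = 0.0274). At 1-week in STR/ort Tmem26 rose (0.70, adjusted p = 0.00115) and Cox7a1, a subunit of the muscle form of cytochrome c oxidase, fell (-1.14, adjusted p = 0.00718).

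Between replicates of a group each other white fat member was set against Adipoq, and Ucp1 against Adipoq, Cidea and Dio2. Over 14 relations among 55 uninjured libraries, with group means removed from log2 CPM, Adipoq and Cfd had a Pearson's r of 0.78 and a Spearman's rho of 0.73 (permutation test within groups with 100000 shuffles, 2-sided, adjusted p = 4.67e-05 and 0.00014; unadjusted p 1e-05, the smallest that the permutations can give). For Adipoq and Fabp4 r was 0.73 and rho 0.62, for Retn 0.66 and 0.63, for Plin1 0.62 and 0.62, for Pparg 0.49 and 0.46 and for Lep 0.47 and 0.51 (permutation test, adjusted p of r 7e-05, 4.67e-05, 0.000112, 0.00231 and 0.0105, unadjusted 2e-05, 1e-05, 4e-05, 0.00099 and 0.00524). Without the 2 libraries farthest from the median of Adipoq the r values were 0.73, 0.68, 0.63, 0.56, 0.40 and 0.48 for Cfd, Fabp4, Retn, Plin1, Pparg and Lep.

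Adipoq was not called with the brown fat genes or with other tissues. The r was 0.19 with Ucp1, 0.23 with Cidea, 0.23 with Dio2, 0.12 with the fast muscle list, 0.05 with the skin list and -0.30 with the erythroid list (permutation test, adjusted p from 0.222 to 0.745). Within batch 1 (40 libraries) the r with Cfd was 0.79 and with the erythroid list -0.52 (permutation test, adjusted p = 7e-05 and 0.0381), and r with Lep and Pparg was 0.41 and 0.36 (both adjusted p = 0.0878). Within batch 2 (15 libraries) the r with Cfd was 0.78, with Plin1 0.80, with Pparg 0.77 and with Lep 0.70 (permutation test, adjusted p = 0.0322, 0.0322, 0.0322 and 0.046), and with Retn and Fabp4 0.52 and 0.58 (adjusted p = 0.147 and 0.214). By Spearman's rho 0 of the 14 relations passed in batch 2 (permutation test, the smallest adjusted p was 0.117), and the erythroid relation of batch 1 did not pass (rho = -0.30, adjusted p = 0.174).

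Ucp1 and Cidea had an r of 0.80 and a rho of 0.61 (permutation test, adjusted p = 4.67e-05 and 0.000672, unadjusted 1e-05 and 0.00024; r = 0.71 without the 2 libraries farthest from the median of Ucp1). Within batch 1 r was 0.82 (permutation test, adjusted p = 0.000175) and within batch 2 it was 0.36 (adjusted p = 0.228), so the relation did not pass in batch 2. Ucp1 and Dio2 had an r of 0.14 (permutation test, adjusted p = 0.497). In the 45 injured libraries 4 of the 14 relations passed, those of Adipoq with Lep, Cfd, Fabp4 and Plin1 (r = 0.63, 0.60, 0.59 and 0.55; permutation test, adjusted p = 0.00345, 0.00345, 0.00345 and 0.0182), against 7 in uninjured libraries. Without the 2 farthest libraries these r were 0.49, 0.47, 0.50 and 0.34.

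**Figure D4:**
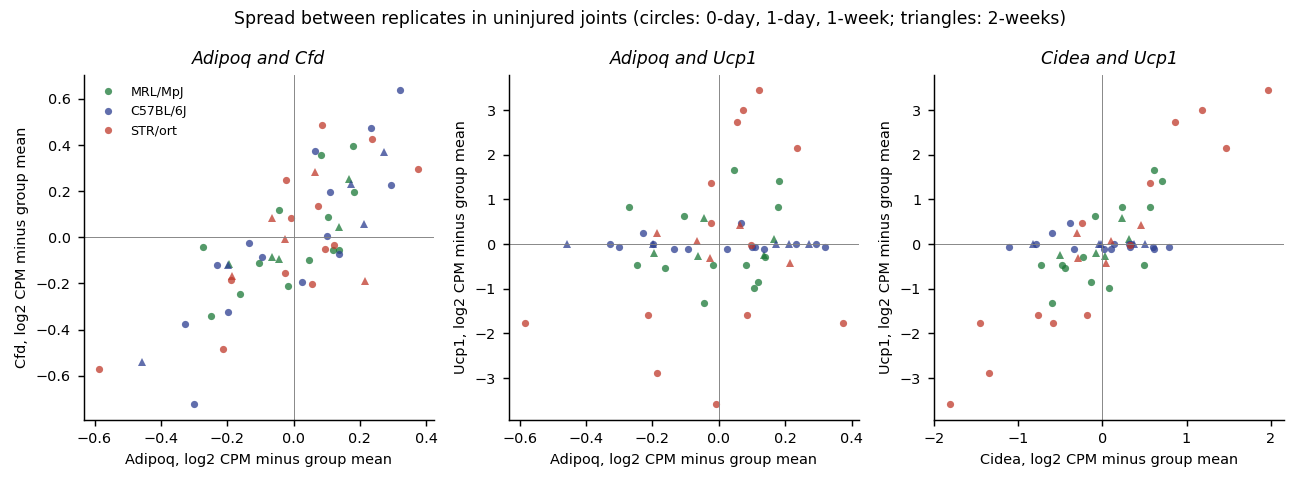
Log2 CPM minus the group mean of pairs of members in 55 uninjured libraries, 1 point per library, coloured by strain, with triangles for 2-weeks. Adipoq and Cfd rise together (r = 0.78), Adipoq and Ucp1 do not line up (r = 0.19), and the Ucp1 and Cidea points (r = 0.80) are spread mostly by STR/ort libraries.

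Whether both joints of an animal deviated together was tested at 2-weeks. Over 15 animals named in the labels r ranged from -0.62 (Pparg) to 0.52 (Cidea), and 0 of 10 members passed the permutation test after adjustment (the smallest adjusted p was 0.314, Pparg, unadjusted 0.0314, the only one below 0.05; rho -0.53, adjusted p = 0.338). Without the 2 farthest animals the sign of r turned in 6 members, with 0.12 for Adipoq (-0.33 with all), 0.25 for Lep (-0.17) and 0.42 for Cfd (-0.08), and r was -0.20 for Plin1 (-0.56), -0.41 for Pparg and 0.43 for Cidea. These values thus rest in part on single animals, and the C57BL/6J animal described above is 1 of the 15.

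By likeness over all 100 libraries (Pearson's r of log2 CPM with group means removed, 14416 genes with a mean of at least 1 CPM), the genes most like Adipoq were Cidec (0.752), Cfd (0.699), Lipe (0.68), Fabp4 (0.668) and Sncg (0.652). Those most like Ucp1 were Cidea (0.65), Acaca (0.52), Zfp937 (0.498), Zfp953 (0.462) and Thrsp (0.453), and those most like Dio2 were Fap (0.561), Arl13b (0.536), P3h2 (0.518), Igsf10 (0.516) and Scpep1 (0.505).

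The spread between replicates was large for most members. The SD of log2 CPM within groups was 1.13 for Ucp1, 0.70 for Cidea, 0.42 for Lep, 0.39 for Retn, 0.36 for Plin1 and 0.31 for Cfd. Among the 500 genes nearest in level each of these 6 was at or above percentile 97, with a median SD of 0.54, 0.44, 0.20, 0.24, 0.18 and 0.12 in those genes. Adipoq (0.22), Dio2 (0.22), Fabp4 (0.21) and Pparg (0.19) stood at percentiles 93.6, 88.8, 80.4 and 67.2.

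**Figure D5:**
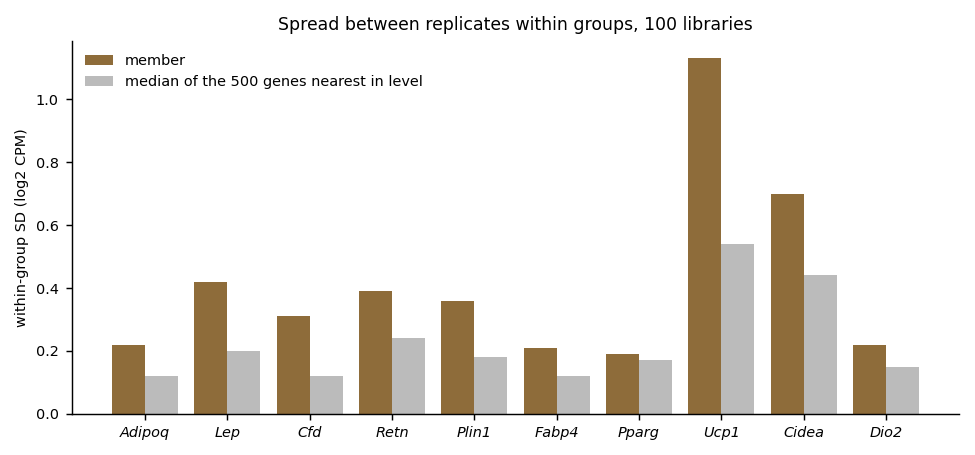
Within-group SD of log2 CPM (y axis, bars from 0) of each member beside the median of the 500 genes nearest in level, over 100 libraries. Ucp1 has the highest bar (1.13 against 0.54), and Pparg stands near its neighbours (0.19 against 0.17).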

How the data were processed

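Whole knee joints were measured by RNA sequencing of poly(A)+ RNA in 100 libraries. Per the labels and the study's methods, the authors used TopHat2 (version 2.0.11) to align reads to mm10 and featureCounts to count them on RefSeq genes, and deposited the counts, whole numbers without normalization. Of 17313 entries 3 repeats were dropped. The study's filter (2 counts in 5 libraries) removed 0 genes. Counts were scaled by TMM and tested with the quasi-likelihood test of edgeR (version 4.0.16, R 4.3.3) over all genes with Benjamini-Hochberg adjustment, 1 fit per time point with a mean per strain and joint, and 1 fit of the 70 libraries of batch 1 for contralateral against 0-day joints. Log2 CPM used a prior count of 2. No 2 libraries of a group (190 pairs) were identical. Intervals and floors cover counting error only.

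The genes named are the 10 members, the 5 genes most like Adipoq, Ucp1 and Dio2, and, of each list of fat genes, the called gene of smallest adjusted p per direction in the injury comparisons, with markers of other tissues. The members and lists were chosen with earlier results of these data known. The animals of both joints are named in the labels for 15 pairs at 2-weeks. There the correlation of same-numbered joints after removal of group means was -0.279 to 0.082 in MRL/MpJ, 0.183 to 0.271 in C57BL/6J and 0.213 to 0.449 in STR/ort. At 1-week all 4 STR/ort pairs exceeded 0.1 (0.162 to 0.37) and were taken as paired, and elsewhere joints share only a number. Alternatives were RLE size factors, scaling by 25 housekeeping genes, RUVg with 1 factor after the study's normalization, DESeq2 (version 1.42.0), filterByExpr, no filter, a replicate block, a fit per strain, and each library left out. Methods were tested on simulated data.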

Additional observations from a re-analysis of the deposited data

Results flagged for a closer look

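In groups of 4 or 5 libraries, 22 of 201 sets of member levels held 1 library far from the others by Dixon's test at the 95% level. For independent sets of normal values chance gives about 5%. Members vary together and some Ucp1 sets were mostly at 0, so that rate is no measure for these flagged values. The C57BL/6J injured library 1 at 2-weeks gave 6 of these values: 69.3 CPM of Adipoq (others 31.6 to 41.2), 248 CPM of Cfd (115 to 150), 38.3 CPM of Plin1 (12.9 to 15.6), 338 CPM of Fabp4 (215 to 244), 2.62 CPM of Cidea (0.385 to 0.772) and 1.07 CPM of Ucp1 (0 to 0.11). The C57BL/6J injured library 1 at 1-day stood at 21.6 CPM of Plin1 (others 16.5 to 17.6) and 1.16 CPM of Cidea (0.247 to 0.3).

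Single values stood apart in other libraries. Adipoq was at 36.1 CPM in C57BL/6J injured library 5 at 1-week (others 46 to 48.9) and at 44 CPM in STR/ort injured library 1 at 2-weeks (32.6 to 34.7). Lep was at 21.8 CPM in MRL/MpJ library 1 at 0-day (11.4 to 13.1). Cfd was at 90.8 CPM in MRL/MpJ contralateral library 1 at 1-day (58.5 to 66.9) and at 126 CPM in C57BL/6J contralateral library 5 at 1-week (85.1 to 95.7). Fabp4 was at 425 CPM in STR/ort contralateral library 4 at 1-day (512 to 545). Pparg was at 21.6 CPM in STR/ort library 4 at 0-day (17.8 to 18.4), at 18 CPM in C57BL/6J injured library 4 at 1-day (19.6 to 20.2) and at 14.1 CPM in MRL/MpJ contralateral library 3 at 2-weeks (11.2 to 12). Ucp1 was at 3.63 CPM in STR/ort contralateral library 5 at 1-day (0 to 0.598) and at 0.509 CPM in MRL/MpJ contralateral library 4 at 1-week (others at 0). Dio2 was at 45.5 CPM in C57BL/6J library 4 at 0-day (25.3 to 28.7), at 20.1 CPM in MRL/MpJ contralateral library 4 (14.5 to 15.6) and at 25.1 CPM in STR/ort contralateral library 4 at 2-weeks (17.7 to 19.2).

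The injury effect on Dio2 at 1-day differed between STR/ort and MRL/MpJ by a log2 difference of -0.67 in the interaction test of edgeR (adjusted p = 0.0304). The cause was not tested.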

How the results depend on the processing

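Of the 78 calls of members, 46 stood under every alternative that gave a value and 58 under all of these but the leaving out of single libraries. An alternative that gave no value for a call was passed over, as DESeq2 was for 2 of the calls. Leaving out 1 library at a time gave 11 to 15 calls between strains at 0-day (14 with all), 14 to 19 between injured and contralateral joints (17), 0 to 2 for the interaction (1), 31 to 36 between strains in contralateral joints (33) and 10 to 14 between contralateral and 0-day joints (13). The last count was 7 under RUVg and 8 without STR/ort libraries 3 and 4 of 0-day, an alternative added after the data were seen. Without those libraries the Ucp1 value turned from 3.81 to -3.49 against MRL/MpJ at 0-day, and from -3.48 to 3.87 at 1-day and -3.45 to 3.91 at 1-week in contralateral against 0-day joints. Libraries 3 and 4 held 233 and 146 of the 380 counts. Leaving out the genes that follow muscle was added as well, and ended 3 calls, all near the 1.5-fold threshold. Covariation passed in 4 relations in injured joints against 7 in uninjured joints.

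With the replicate block 22 injury tests and 2 interactions were called. The block added Retn in MRL/MpJ and STR/ort at 1-day (adjusted p = 0.0282 and 0.0237) and in MRL/MpJ at 1-week (adjusted p = 0.0352), where the joints share only a number. It ended no call. Scaling by housekeeping genes moved the median of all genes by -0.13 to 0.09 (log2), and 4 calls were lost. DESeq2 lost 6 calls, 5 of them of Ucp1, and gave no adjusted p for 2 more. RUVg lost 16 calls, and added calls of Fabp4, Adipoq, Plin1 and Ucp1. Depth bears on Ucp1, which had a count in 56 of 100 libraries, and a library without a count leaves a level of up to 3 counts open.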
